A study of Drosophila melanogaster with 12 samples.

Results

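Replication timing (RT) in the salivary glands of Rif1 null larvae was compared with RT in wild-type (WT) salivary glands, using 2 sequenced DNA libraries of each genotype among the 12 libraries of the series. The Rif1 larvae carried the alleles Rif1 1/Rif1 2, a trans-heterozygous null combination in a w118 background, and the WT larvae were Oregon-R, so genotype and strain background cannot be told apart. Glands of SuUR larvae (SuUR ES, 2 libraries) are given as a second mutant where the Rif1 values are set against them. The SuUR flies also had a w118 background. All larvae were females of the 3rd instar before wandering, with the glands of about 20 larvae pooled, and the study calls the libraries of a genotype biological replicates. Every window on X and on the arms of chromosomes 2 and 3 was used, 118985 in all, and consecutive windows were joined into 2382 bins of 50 windows, of which 2350 had enough values in all 4 libraries to be tested.

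Rif1 is a conserved regulator of RT. It binds chromatin and brings protein phosphatase 1 (PP1) to origins, where the phosphatase opposes the kinases that start replication, and origins held by Rif1 fire late. The salivary gland of the fly larva is polytene: its cells copy their genome many times without dividing, and in late-replicating stretches forks stall and copies stay missing. This underreplication (UR) needs the SNF2-like protein SUUR, which slows replication forks, and it needs Rif1. UR is found in blocks along the euchromatic arms (eUR) and in pericentromeric heterochromatin (PH), and the rest of the arms is fully replicated (FR).

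Each window carries rawRT, the corrected read coverage as a score without unit, for which the authors set the FR part of the arms to mean 0 and SD 1. A higher score stands for more copies, so a bin that was higher in Rif1 is called advanced here and a bin that was lower is called delayed. Coverage rises with earlier replication and with more complete replication, and in UR these cannot be told apart by the score.

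The DNA at the centre of the most advanced and of the most delayed bin with no window in UR shows the sequence context in which the largest changes were measured (dm6, plus strand, with the bases read from the RefSeq assembly). Capitals mark runs of at least 5 bases that are all A or T. The advanced stretch is chr2L:12890351-12890650, between genes in a bin that holds a single protein-coding gene, ACXC, an adenylate cyclase gene. The delayed stretch is chr2L:86468-86767, in an intron of net, which encodes a helix-loop-helix factor of wing vein patterning.
advanced, 2L: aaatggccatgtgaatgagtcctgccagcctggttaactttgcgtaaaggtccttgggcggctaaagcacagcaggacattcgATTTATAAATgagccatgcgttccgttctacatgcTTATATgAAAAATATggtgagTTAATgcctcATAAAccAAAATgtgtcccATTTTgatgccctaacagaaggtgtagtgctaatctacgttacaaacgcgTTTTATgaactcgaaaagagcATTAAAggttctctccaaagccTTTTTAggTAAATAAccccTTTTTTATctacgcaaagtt
delayed, 2L: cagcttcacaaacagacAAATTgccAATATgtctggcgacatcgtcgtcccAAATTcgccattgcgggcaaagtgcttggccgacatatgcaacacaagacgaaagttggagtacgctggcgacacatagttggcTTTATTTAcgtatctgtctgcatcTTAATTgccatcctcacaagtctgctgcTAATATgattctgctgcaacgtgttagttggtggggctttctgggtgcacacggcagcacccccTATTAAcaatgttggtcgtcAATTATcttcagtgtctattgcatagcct

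The advanced stretch holds 12 such runs in 300 bases and the delayed stretch holds 8, and 29.3% and 60.9% of all 300-base stretches of the arms hold as many or more. Almost every stretch (98.2%) has at least 1 run, so runs alone mark neither set. In the bin of the advanced stretch, chr2L:12865000-12916000, rawRT was -0.081 and -0.20 in the Rif1 libraries, against -5.22 and -6.48 in the WT libraries. The bin was advanced by 5.71 ± 0.41 (SE, adjusted p = 0.000464, limma), and the libraries of the genotypes lay far apart. Its WT level was below the threshold for UR, in a run shorter than the 50 kb that a UR region had to reach. In the bin of the delayed stretch, chr2L:61494-111740, rawRT was -1.61 and -0.38 in the Rif1 libraries and 1.14 and 1.66 in the WT libraries. That bin was delayed by 2.39 (difference -2.39 ± 0.43, adjusted p = 0.00998), and although the Rif1 libraries differed by more than 1 from each other, both lay below both WT libraries.

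The coverage of the Rif1 gene itself matched the labels; DNA coverage holds no marker genes by which to check the tissue. Of the 6 windows over the gene, 4 had no value in either Rif1 library, while all 6 had values in both WT and both SuUR libraries. The 2 windows that remained had medians of -1.21 and -1.33 in the Rif1 libraries, against medians of 0.49 and 1.24 over all 6 windows in the WT libraries. The depth of the libraries is unknown, since neither table holds read counts. Windows without a value numbered 1892 and 1920 in the Rif1 libraries and 3038 and 2582 in the WT libraries. Over all bins, Pearson's r was 0.95 between the Rif1 libraries and 0.990 between the WT libraries; over FR bins it was 0.856 and 0.951. These are correlations across neighbouring bins of the same libraries, which are not independent. Very high scores were more frequent in Rif1: 140 windows exceeded 10 in a Rif1 library, 124 of them in UR and 70 on X, against 5 windows in a WT library.

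RT differed between Rif1 and WT in both directions and on every arm. Of the 2350 tested bins, 675 were advanced (28.7% of the bins) and 286 were delayed (12.2%), so that 40.9% were called by limma at an adjusted p below 0.05 with the libraries as replicates. At an unadjusted p below 0.05 the number was 1183. In all 675 and all 286 called bins both Rif1 libraries lay on the same side of both WT libraries; over all tested bins the Rif1 libraries lay above in 1002 and below in 785. The advanced bins differed by a median of 1.76 (0.46 to 43.1), and 459 of them by at least 1. The delayed bins differed by a median of -0.75 (-2.39 to -0.46), and 51 of them by at least 1, so the delays were fewer and smaller. Advanced bins made up 20.0% of the tested bins on X, 31.8% on 2L, 25.2% on 2R, 34.5% on 3L and 30.6% on 3R. Delayed bins made up 5.95%, 11.6%, 10.6%, 15.7% and 15.3% of the bins on the same arms, so X had the lowest share of both. With 2 libraries in a group an exact two-sided permutation test of a single bin cannot go below p = 0.333, so the calls rest on the spread that limma shares across bins. Without Rif1 replicate 1 the calls fell to 402 advanced and 40 delayed bins, and without Rif1 replicate 2 there were 467 and 95. Leaving out WT replicate 1 or 2 left 151 or 154 delayed bins. The split between the directions depends on the scaling: after quantile normalization, which gives every library the same distribution of scores, 477 bins were advanced and 789 delayed, and the advanced share of the calls was 37.7% in place of 70.2%. That step moved the median difference over all bins to -0.26, against 0.058. Of the 675 advanced bins 476 were called in the same direction after it and 8 in the other, and of the 286 delayed bins 285 were called in the same direction and 0 in the other. In FR the step gave 275 advanced and 781 delayed bins. A step that shifts FR towards delay favours delayed bins staying delayed, so their persistence is no separate support.

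**Figure D1:**
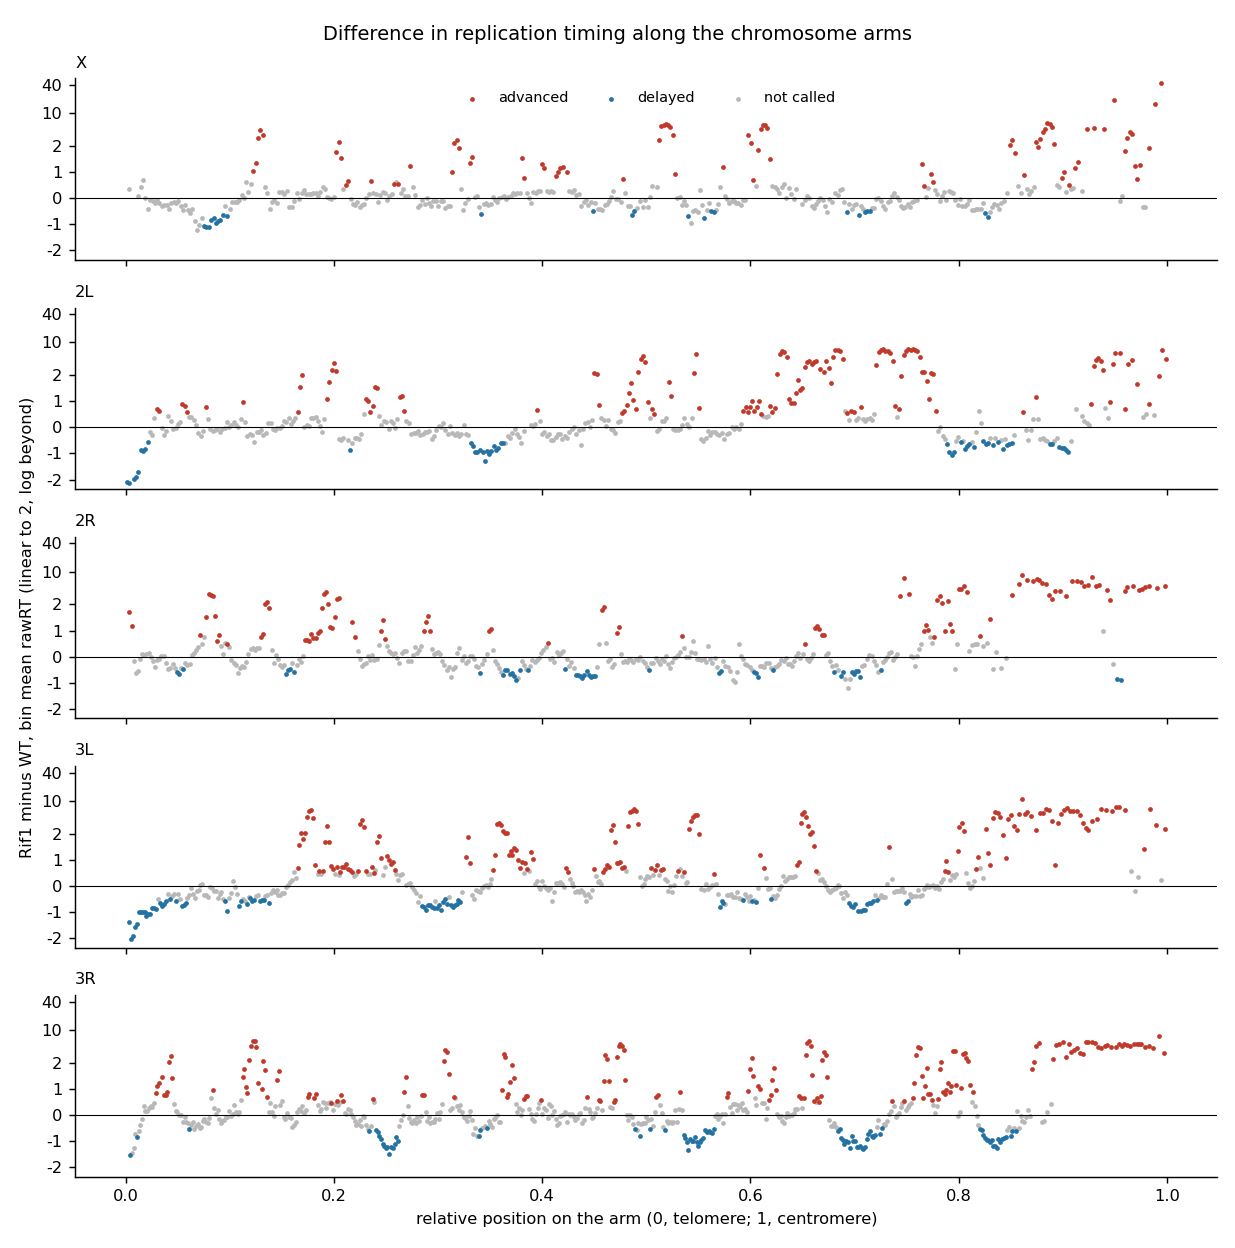
Difference in bin mean rawRT, Rif1 minus WT (score; linear to 2 and logarithmic beyond), against relative position on each arm, with 1 point for each of the 2350 tested bins (red, advanced; blue, delayed; grey, not called). Advanced bins stand in peaks along the arms and in a block next to the centromere, and delayed bins lie in shallow troughs between them.

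The compartments were taken from the mean WT profile, as runs below a rawRT of -2.85, and split where the block of UR next to the centromere first ended. UR regions beyond that point were counted as eUR, also where they lie in the proximal heterochromatin of an arm. Every delayed bin lay in FR, where 432 bins were advanced and 286 delayed of 2105 tested. In eUR all 190 tested bins were advanced, and in PH 53 of 55.

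In eUR, the median rawRT was -0.31 and -0.54 in the Rif1 libraries, against -5.06 and -5.89 in the WT libraries, a difference of 4.83. The Rif1 medians lay close to those of FR (0.0085 and -0.073), with no overlap with WT. Because the compartments were called in WT, a rise is favoured, so eUR was also called in 1 WT library and measured against the other, which gave differences of 5.47 and 4.35. The upper and the lower end of the RT scale can be read from quartiles of each library: 38.1% and 42.5% of eUR windows remained in the latest quartile (Q4) of the Rif1 libraries, against 99.8% and 99.8% in WT. In the earliest quartile (Q1) were 21.3% and 19.1% of the eUR windows in the Rif1 libraries and 0.065% and 0.086% in the WT libraries. Some of the DNA that is underreplicated in WT was thus scored among the earliest of the genome in Rif1. After quantile normalization the difference in eUR was 2.80.

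**Figure D2:**
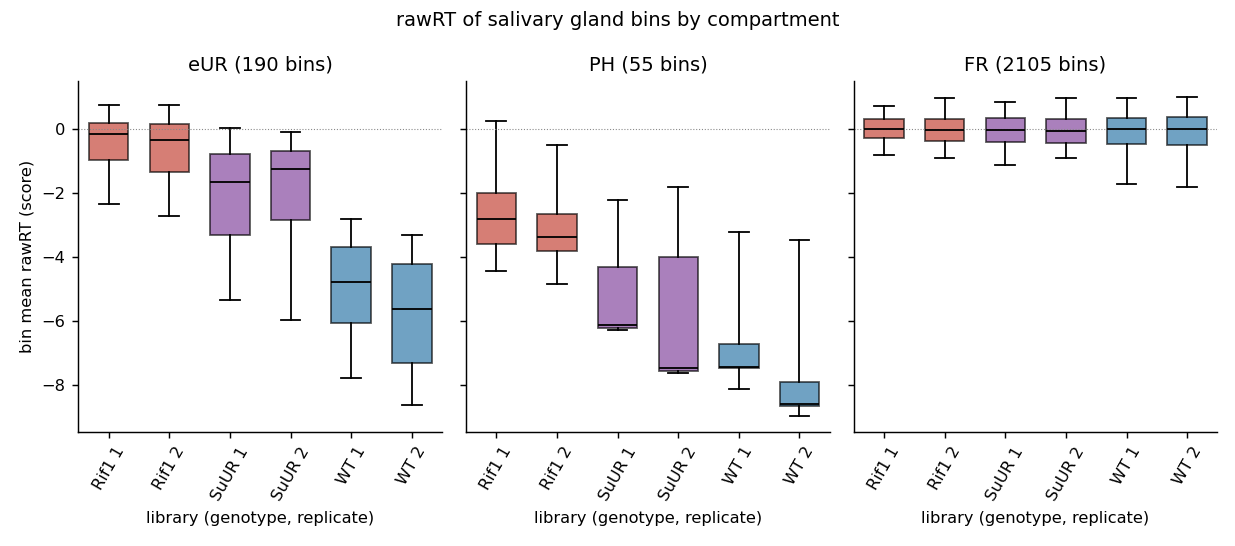
Mean rawRT (score) of the bins in eUR, PH and FR for each library of Rif1, SuUR and WT salivary glands; boxes give the quartiles and the median, whiskers the 5th to 95th percentile of bins. In eUR the Rif1 boxes reach 0, in PH they stay well below it, and in FR they are narrower than those of WT.

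All 45 eUR regions had both Rif1 medians above both WT medians, with means of -3.62 to 0.93 in Rif1, against -8.16 to -3.04 in WT. They did not reach a common level, and the level went with position. The class holds 15 regions in the proximal divisions 20, 40, 41, 80 and 81 of the chromosome map. This split was made after the values were seen. The 15 regions hold 4379 of the 9380 eUR windows, and the eUR medians and quartile shares above cover both parts together. In all 15 regions both Rif1 libraries lay below the FR median of the same library. Over these regions the median rawRT was -1.20 and -1.63 in the Rif1 libraries, against -6.24 and -7.25 in WT. In the other 30 regions it was 0.14 and 0.087 in the Rif1 libraries and -4.35 and -5.23 in WT, and both Rif1 libraries lay above the FR median in 20 regions and below it in 6. Without the proximal regions the difference in eUR was 4.90. A few regions, chosen after their values were seen, show the range. At 98B7-98C1 (chr3R:28033000-28224000), over the gene trv, the Rif1 libraries had 0.87 and 0.99, against -4.11 and -5.08 in WT, so that a region of UR scored above the FR median. At 75C2-75C6 (chr3L:18204000-18446000), which holds the cell death genes rpr, grim and skl, Rif1 had -0.33 and -0.11 and WT -4.12 and -5.22. At 81F5 (chr3R:3895300-4174500), near the centromere, Rif1 had -1.93 and -2.63 and WT -5.94 and -6.46. This last region was the lowest of Rif1 outside 2R.

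In PH, the median rawRT was -2.99 and -3.46 in the Rif1 libraries, against -7.43 and -8.61 in the WT libraries, a difference of 4.43. The rise in score was close to that in eUR, but it ended lower: 86.1% and 89.7% of PH windows stayed in Q4 of the Rif1 libraries, against 98.1% and 97.8% in WT. In the plot of rawRT by compartment the Rif1 boxes of PH lie below those of eUR. The difference in PH depended on the scaling, at 0.38 after quantile normalization and 3.22 after division by the SD of each library's signal.

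Over FR as a whole the median hardly moved, with 0.0085 and -0.073 in the Rif1 libraries and -0.018 and -0.090 in the WT libraries (difference 0.035, which turned to -0.23 after quantile normalization). Within FR the smoothed profile was flatter on the scaled score. The SD of the running median over 21 windows was 0.561 and 0.633 in the Rif1 libraries, against 0.844 and 0.902 in WT. Single FR windows varied as much in both (SD 1.11 and 1.09 in Rif1, 1.15 and 1.16 in WT). The authors' scaling of the arms largely fixed that SD and the FR median in advance. Neighbouring windows thus shared less of the variation in Rif1, and whether noise, depth or timing lowered that share was not tested. Adjacent FR windows had an autocorrelation of 0.416 and 0.462 in Rif1 and of 0.668 and 0.674 in WT, and at a distance of 100 windows it was 0.129 and 0.170 in Rif1 and 0.218 and 0.210 in WT. The order of the bins changed too. The Rif1 mean and the WT mean had r = 0.366 and Spearman's rho = 0.404 over FR bins, far below the values between libraries of 1 genotype; base composition and the mappable windows are shared by the 2 profiles.

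**Figure D3:**
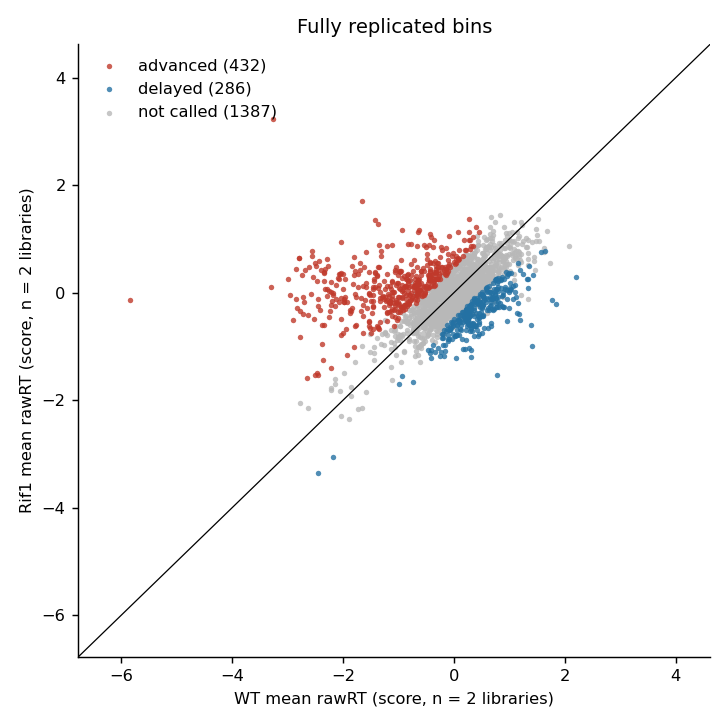
Mean rawRT of Rif1 (score, y axis) against mean rawRT of WT (score, x axis) for the 2105 tested FR bins; the line marks equality, and points are red (advanced), blue (delayed) or grey (not called). Most bins that are late in WT lie above the line, and most delayed bins, though not all, lie on the early side of WT.

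The bins that were late in WT moved up and those that were early moved down. FR bins were split into quartiles in 1 WT library and measured against the other, so that chance highs and lows of a library did not enter both. In the latest quartile of WT the median difference was 0.80 and 0.79, with 330 and 332 of 527 bins advanced in the test, which used both WT libraries. In the earliest quartile it was -0.36 and -0.31, with 164 and 155 of 526 bins delayed and 3 advanced. The quartiles in between had median differences between these values. Delayed bins were not limited to early DNA, with 32 and 31 in the third quartile and 7 and 5 in the latest. The Rif1 libraries kept the order of the outer quartiles over a narrower range, with medians of 0.22 and 0.29 where WT replicate 1 was earliest and of -0.14 and -0.26 where it was latest. Noisier windows in Rif1, at the fixed SD of the scaling, would also bring late and early bins towards the middle, which was not tested.

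Runs of advanced bins longer than 200 kb formed 58 domains, which covered 33.7 Mb with a median length of 356 kb. In 23 of them at least 0.5 of the windows lay in UR, in 21 fewer than 0.1 did, and 14 lay between. Delayed bins formed 19 domains that covered 9.81 Mb, with a median length of 364 kb, and in all of them fewer than 0.1 of the windows lay in UR. Advanced domains were on every arm (9 on X, 10 on 2L, 10 on 2R, 13 on 3L and 16 on 3R). Of the delayed domains 1 was on X, 4 on 2L, 4 on 2R, 6 on 3L and 4 on 3R. Since a domain is a run of called bins, its bins passed the test by definition, and the values of the 16 named domains (the longest of each kind outside 2R) are given as means over their bins.

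Among advanced domains with fewer than 0.1 of their windows in UR and not on 2R, the longest lay at 67D1-67E7 (chr3L:9900900-10719000, 54 protein-coding genes from nudE to NijA). It holds the eUR region chr3L:10046000-10098000, and 5.6% of its windows lay in UR. The longest gene of the domain, dpr6, overlaps that region and encodes an immunoglobulin protein of the neuronal surface. Over the whole domain rawRT was 0.47 and 0.20 in the Rif1 libraries, against -1.21 and -1.50 in the WT libraries (difference 1.69, 16 bins with adjusted p of 0.000574 to 0.035). In rank the bins of the domain had their median at the 87.9 and 72.4 percentile of all bins in the Rif1 libraries and at the 19.3 and 20.8 percentile in WT, so a late domain had become an early one relative to the rest of the genome.

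The domain at 69E8-70B1 (chr3L:12866000-13477000, CG14120 to CG10089) includes caps, a leucine-rich repeat protein of cell recognition. Its rawRT was 0.47 and 0.38 in the Rif1 libraries and -0.64 and -0.84 in the WT libraries (difference 1.16). At 100A1-100B1 (chr3R:30606000-30964000, CG31016 to Ctr1C), over the zinc-finger homeodomain gene zfh1, Rif1 had 0.41 and 0.25 and WT -1.05 and -1.19 (difference 1.45). The bins of these domains ranked at medians of the 72.9 to 83.8 percentile in the Rif1 libraries and of the 21.4 to 32.2 percentile in the WT libraries.

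At 92D1-92E13 (chr3R:20083000-20508000, CG31206 to Or92a, with the GDNF receptor-like gene Gfrl) rawRT was -0.075 and -0.11 in Rif1, against -1.51 and -1.87 in WT (difference 1.60). This domain rose only to the middle of the range. The smallest changes were at 34E3-35A4 (chr2L:13925000-14375000, Ance-3 to the mismatch repair gene spel1, with the laminin gene wb), where Rif1 had 0.16 and 0.23 and WT -0.54 and -0.56 (difference 0.74), and at 64E7-65A6 (chr3L:5776300-6131100, vito to Lcp65Ag3). In the stretch at 64E7-65A6 lies vn, which encodes a ligand of the EGF receptor, and rawRT was 0.43 and 0.44 in Rif1, against -0.30 and -0.12 in WT (difference 0.65). The libraries of Rif1 and WT did not overlap in any of these domains, which follows from their being built of called bins. The calls in them leaned on both Rif1 libraries: of 16, 12, 9, 8, 7 and 7 bins in the domains at 67D, 69E, 34E, 92D, 100A and 64E, 9, 3, 2, 4, 5 and 0 were called without Rif1 replicate 1, and 13, 5, 1, 6, 6 and 0 without Rif1 replicate 2. After quantile normalization the differences of these 6 domains were 0.45 to 1.27.

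The longest advanced domains in UR that were not on 2R lay next to centromeres. At 80D5-80F9 (chr3L:23191000-27116000) 26 genes from nAChRalpha4 to CG40228 lie in 3925 kb, among them lovit, a histamine transporter gene of photoreceptors that spans 434 kb. rawRT was -0.64 and -1.10 in the Rif1 libraries, against -5.11 and -6.01 in the WT libraries (difference 4.69). At 81F1-81F4 (chr3R:493-3538100), with the myosin gene Myo81F and Parp1, which encodes poly(ADP-ribose) polymerase, Rif1 had -3.05 and -3.51 and WT -7.27 and -8.43 (difference 4.57). Both domains rose far in score, but in rank the domain at 80D rose little and that at 81F did not rise. At 80D the median percentile of the bins was 9.77 and 6.34 in Rif1, against 4.68 and 4.51 in WT, and at 81F it was 1.32 and 1.23 in Rif1, against 1.66 and 1.49 in WT. After quantile normalization the differences were 1.88 and 0.57, with 36 of 44 and 15 of 35 bins still called.

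The euchromatic domain at 35B2-35F1 (chr2L:14528000-16214000, CG4218 to CG31819, 136 genes, longest osp) moved in rank as well. rawRT was 0.34 and 0.43 in the Rif1 libraries and -2.60 and -3.23 in the WT libraries (difference 3.30), and its bins stood at a median of the 78.3 and 79.5 percentile in Rif1, against the 12.4 and 11.0 percentile in WT. The Rif1 libraries differed by less than 0.1. At 20B2-20C1 on X (chrX:21654000-22452000, CG40813 to tilB) the mean over 4 bins was 2.00 and 1.53 in Rif1 and -6.14 and -6.63 in WT. This difference of 8.15 rested in part on windows with very high scores, and it was 4.22 without windows above 10, a setting chosen after seeing the data. In rank the domain did not rise: the median percentile of its bins was 2.77 and 2.85 in Rif1, against 3.19 and 4.11 in WT.

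The bins with the largest rise were all on X near the centromere and were also shaped by such windows. The bin chrX:23335000-23474000 had rawRT of 40.6 and 31.7 in the Rif1 libraries, against -6.64 and -7.19 in WT, and 39 of its windows exceeded 10. The bin at 20C1 (chrX:22256000-22452000, CG14621, CG14615 and tilB) had 14.7 and 13.4 in Rif1 and -4.55 and -4.58 in WT. Without the windows above 10 it had 0.62 and 0.26 in Rif1, against -3.69 and -3.69 in WT, so the rise remained at a smaller size. The bin chrX:23187000-23335000 had 10.1 and 7.80 in Rif1 and -6.23 and -6.86 in WT, and without those windows 1.25 and 0.37 in Rif1, against -6.48 and -7.13 in WT.

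**Figure D4:**
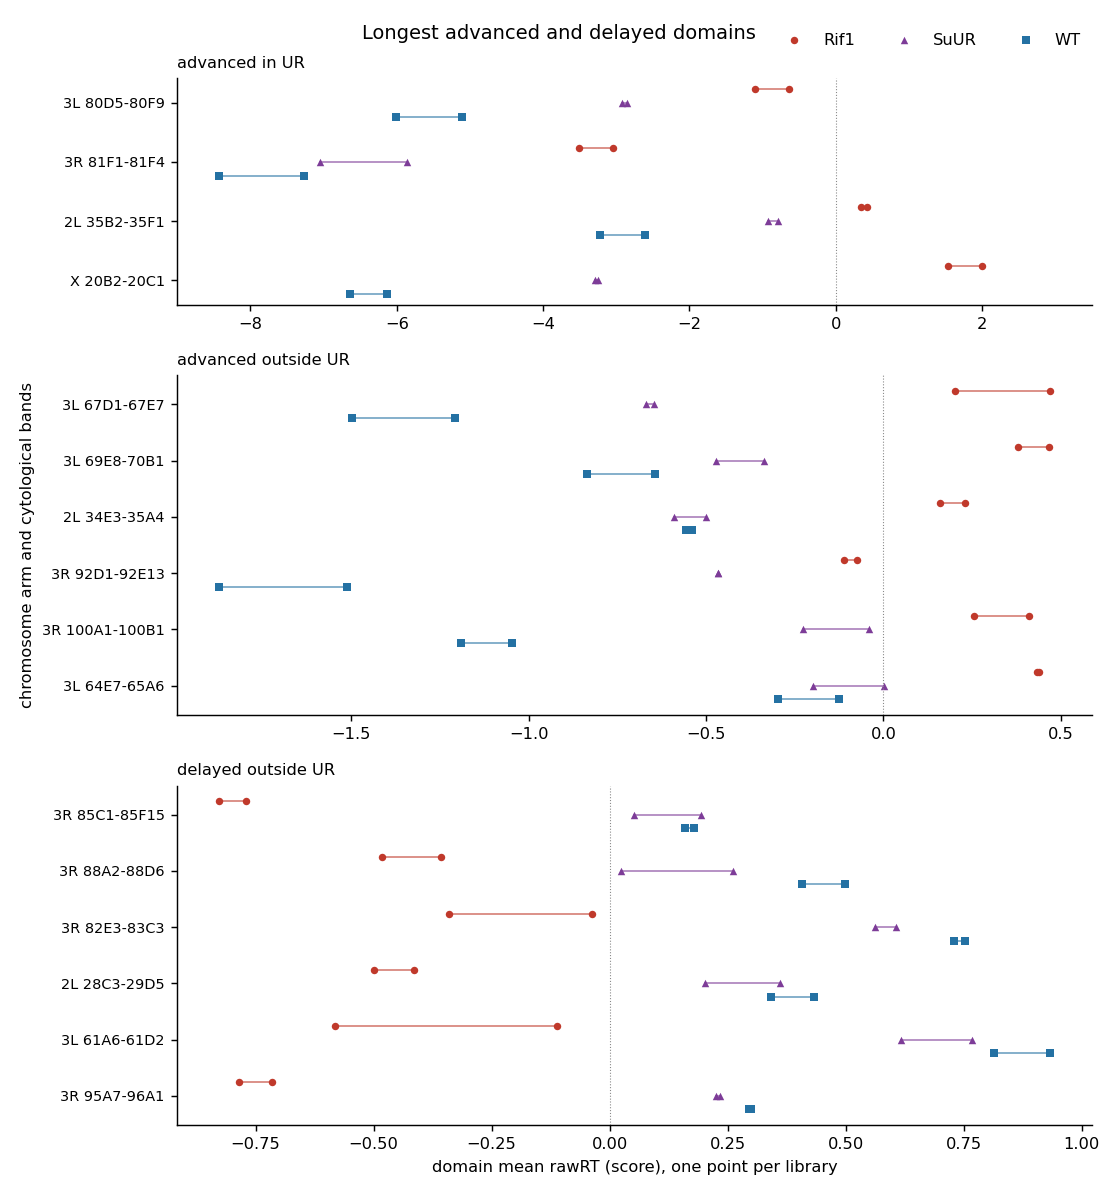
Mean rawRT (score) of the 16 named domains, labelled by arm and cytological bands, with 1 point for each library of Rif1 (circles), SuUR (triangles) and WT (squares), and lines joining libraries of a genotype; the scale differs between the panels. Rif1 lies right of WT in every advanced domain and left of WT in every delayed one, with SuUR between them or beside WT.

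Most delayed domains held gene-rich DNA that was early in WT. In 17 of the 19 the median percentile of the bins was above 50 in both WT libraries, and 17 had more genes per 100 kb than the median FR bin. The exceptions were a domain on 2R that was late in WT and poor in genes, a late one on 2L (chr2L:21061000-21312000) with WT rawRT of -0.37 and -0.35, and one on 3L (chr3L:897070-1112700) with 3.71 genes per 100 kb. The longest delayed domain was at 85C1-85F15 (chr3R:8968200-10156000), with 183 genes from CAHbeta, a carbonic anhydrase gene, to CG34303, and with the translational repressor gene pum. rawRT was -0.83 and -0.77 in the Rif1 libraries, against 0.16 and 0.18 in the WT libraries (difference -0.97, 23 bins with adjusted p of 0.00199 to 0.0495). It stood at the 9.23 and 11.9 percentile in Rif1 and at the 73.8 and 71.6 percentile in WT. A domain of more than 1 Mb from the early part of the WT genome was thus among the latest of the arms in Rif1.

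At 95A7-96A1 (chr3R:23663000-24387000, GILT3 to CG17780) Rif1 had -0.72 and -0.79 and WT 0.30 and 0.30 (difference -1.05), and the ranks changed as far as at 85C. At 88A2-88D6 (chr3R:13938000-14913000, Art9 to VhaPPA1-1, with the RhoGAP gene cv-c) rawRT was -0.48 and -0.36 in Rif1 and 0.50 and 0.41 in WT (difference -0.87). At 28C3-29D5 (chr2L:7769000-8546000, CG7191 to CG17834, with the co-repressor gene Snoo) Rif1 had -0.42 and -0.50 and WT 0.43 and 0.34 (difference -0.84). In these 3 domains the libraries of a genotype differed by less than 0.2, well under the difference between genotypes.

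The remaining named delayed domains had less equal Rif1 libraries. At 82E3-83C3 (chr3R:4945100-5783600, from the ubiquitin-conjugating enzyme gene Ubc6 to jagn) rawRT was -0.34 and -0.038 in Rif1, against 0.73 and 0.75 in WT (difference -0.93). At 61A6-61D2, next to the telomere (chr3L:71290-838730, CG13405 to CG13901, with klar, a gene of nuclear positioning), it was -0.58 and -0.11 in Rif1 and 0.81 and 0.93 in WT (difference -1.22). Both were early in WT, at a median percentile of 89.6 to 92.6. That the genotypes did not overlap in them follows, as above, from their being runs of called bins. Of the 19 delayed domains only 1 was left without Rif1 replicate 1 and 10 without Rif1 replicate 2, and 12 or 13 without a WT library. After quantile normalization the differences of the 6 named delayed domains were larger, at -1.26 to -1.76, but the step shifted FR as a whole towards delay (median difference -0.23).

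The most distal DNA was delayed on some arms and not on others. In the distal 1 Mb of 3L, 17 of 18 tested bins were delayed (median difference -1.01), with median rawRT of -0.56 and -0.039 in the Rif1 libraries and 0.72 and 0.73 in the WT libraries. On 2L 9 of 19 bins were delayed and 2 advanced. On X 0 of 15 bins were called in either direction, with a median difference of -0.12, on 2R 2 of 18 were advanced and 0 delayed, and on 3R 2 of 17 were advanced and 2 delayed. Beside the bin shown by sequence above, the most delayed bins were at 21A2 on 2L (chr2L:5055-61493), with the tumour suppressor gene l(2)gl and the cooling receptor gene Ir21a, and at 61B1 on 3L (chr3L:131470-181460), with the kinase gene Pdk1. The bin at 21A2 had -2.05 and -1.01 in Rif1 and 0.34 and 1.20 in WT (difference -2.30), and the bin at 61B1 had -0.82 and 0.40 in Rif1 and 1.87 and 1.82 in WT (difference -2.05). Rif1 replicate 1 was the lower library in both, and without it the bin at 21A2 was no longer called (adjusted p = 0.0858).

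The advanced and delayed bins of FR had different median base composition and gene density. Advanced FR bins had a median GC content of 41.8% and 6.0 protein-coding genes per 100 kb, delayed FR bins 43.1% and 14.0 genes per 100 kb, and all FR bins 42.6% and 10.00 genes per 100 kb. Bases in A or T runs of at least 5 took a median of 22.6% of advanced, 19.9% of delayed and 20.9% of all FR bins. Late and early DNA are known to differ in the same features, and these values were not compared at matched WT timing. Domains gave the same order: 9.78 genes per 100 kb in advanced domains outside UR, 1.86 in advanced domains in UR and 14.0 in delayed domains.

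Gene groups were followed by the RT of the bin that holds each gene's midpoint, which is a property of the locus and not of expression. Their shares were not compared at matched WT timing, with which the calls in FR went. In the latest WT quartile 330 and 332 of 527 FR bins were advanced, and in the earliest 164 and 155 of 526 were delayed. The 8 Hox genes, the homeodomain regulators of segment identity, which are silenced by Polycomb in most larval tissue, all lay in advanced bins, beside 28.7% of all bins and 20.5% of FR bins. Each took a bin of its own, but Ubx, abd-A and Abd-B share the advanced domain chr3R:16658000-17069000, and Antp lies in the advanced domain chr3R:6461400-7070900. Neighbouring bins are not independent, so the 8 bins are not separate hits. The median difference of the 8 bins was 1.29, against 0.058 over all bins. In the bithorax complex, abd-A had rawRT of -0.70 and -0.83 in the Rif1 libraries, against -5.16 and -6.31 in WT (difference 4.97 ± 0.38, SE), and Abd-B had -0.27 and -0.65 in Rif1, against -2.82 and -3.40 in WT (difference 2.65 ± 0.25). The bins of those 2 loci counted as UR. The bins of Ubx and Antp counted as FR, although part of the Ubx gene lies in the eUR region chr3R:16701000-16941000. Ubx had 0.16 and -0.46 in Rif1 and -1.26 and -1.74 in WT (difference 1.35 ± 0.28), and in the Antennapedia complex Antp had -0.36 and -0.62 in Rif1 and -2.19 and -2.88 in WT (difference 2.04 ± 0.26). The other Hox genes, lab, pb, Dfd and Scr, differed by 0.81 to 1.22. Most of these loci stayed below 0 in Rif1, later than the FR median. Without Rif1 replicate 1 the bins of Antp (adjusted p = 0.0571) and Ubx (adjusted p = 0.0955) were no longer called, and after quantile normalization Ubx was not (adjusted p = 0.0575).

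Of 52 tested genes of the beat, side, dpr and DIP families, immunoglobulin proteins by which neurons recognise their partners, 30 lay in advanced bins and 2 in delayed bins, beside 28.7% of all bins advanced and 12.2% delayed. They took 51 bins with a median difference of 1.34. Of these bins 13 lie in UR, and of the 38 in FR 16 were advanced and 2 delayed, beside 20.5% and 13.6% of all FR bins. The strongest were at 35E and 36C: beat-Ia had 0.23 and 0.12 in the Rif1 libraries, against -6.03 and -7.47 in WT, and beat-Ic had 0.19 and 0.19 in Rif1, against -5.89 and -7.22 in WT. The bin of beat-IIIa, which also holds the taste receptor genes Gr36a, Gr36b and Gr36c, had -0.38 and -0.15 in Rif1 and -6.33 and -7.65 in WT, and that of beat-IIIc had -0.093 and -0.074 in Rif1 and -5.99 and -7.13 in WT. Here the libraries of Rif1 scored near the FR median, and each difference exceeded 6.

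Of 178 chemoreceptor genes 60 lay in advanced and 18 in delayed bins (38 and 15 of 125 bins, median difference 0.090), shares near those of all bins. Or35a, an odorant receptor gene, had 0.059 and 0.34 in Rif1, against -3.47 and -4.26 in WT.

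Ribosomal protein genes leaned the other way, again without a match for WT timing. Of 83 tested genes 6 lay in advanced and 18 in delayed bins (6 and 17 of 78 bins, all in FR, median difference -0.24), beside 20.5% of all FR bins advanced and 13.6% delayed. RpS19b had rawRT of -1.13 and -1.25 in the Rif1 libraries and 0.23 and 0.40 in WT (difference -1.50 ± 0.15). RpS29 had -0.70 and -0.53 in Rif1 and 0.59 and 0.73 in WT, and RpL34b had -0.32 and -0.24 in Rif1 and 1.08 and 0.90 in WT, both delayed by more than 1. RpL35A had -0.65 and -0.51 in Rif1 and 0.35 and 0.54 in WT (difference -1.02 ± 0.15), and was not called without Rif1 replicate 1 (adjusted p = 0.0555). These loci were in the earlier part of WT and lay below 0 in Rif1.

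**Figure D5:**
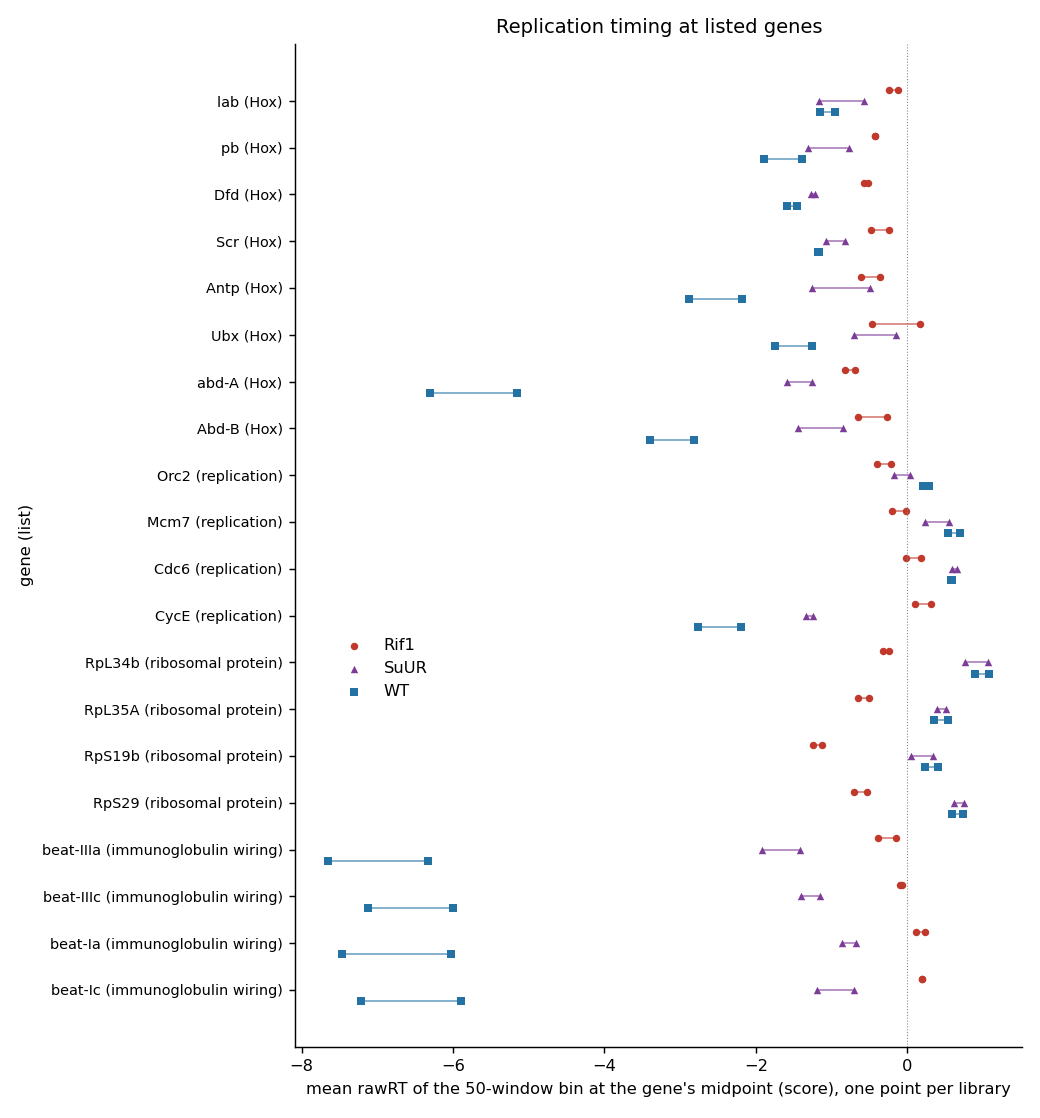
Mean rawRT (score) of the bin at the midpoint of each named gene, with the list in brackets and 1 point for each library of Rif1 (circles), SuUR (triangles) and WT (squares). The Hox and beat loci and CycE lie right of WT in Rif1, and the ribosomal protein loci and Orc2, Mcm7 and Cdc6 lie left of it.

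Among 20 genes of replication control, 2 lay in advanced and 4 in delayed bins. They took 19 bins, all in FR, where 20.5% of bins were advanced and 13.6% delayed, so the number delayed was near the share of any FR bins. CycE, the cyclin that drives entry into S phase, lies at 35D4 and had 0.10 and 0.32 in the Rif1 libraries, against -2.20 and -2.76 in WT (difference 2.68 ± 0.23, adjusted p = 0.000637). Mcm7, a subunit of the replicative helicase, had -0.013 and -0.21 in Rif1 and 0.69 and 0.54 in WT (difference -0.72 ± 0.16). Orc2, a subunit of the origin recognition complex, had -0.22 and -0.40 in Rif1 and 0.29 and 0.20 in WT (difference -0.55 ± 0.15), and Cdc6, which loads the helicase, had 0.17 and -0.019 in Rif1 and 0.59 and 0.58 in WT (difference -0.50 ± 0.15, adjusted p = 0.0446). The calls of Orc2 and Cdc6 were lost whichever of the 4 libraries was left out (adjusted p of 0.0814 to 0.135 and of 0.0902 to 0.155), and that of Mcm7 without Rif1 replicate 1, Rif1 replicate 2 or WT replicate 1 (adjusted p of 0.0644 to 0.0909). With the replicate number as a block Cdc6 had an adjusted p of 0.0519.

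The gene groups best known from the larval salivary gland lie in few bins, all in FR with its shares of 20.5% advanced and 13.6% delayed, so a low count says little of them. Of the 10 glue and related secretion genes 0 lay in called bins, with differences of -0.59 to 0.21 over 6 bins. The glue genes Sgs3, Sgs7 and Sgs8 share a bin at 68C11 that had 0.15 and 1.07 in the Rif1 libraries and 1.40 and 0.99 in WT, so the genotypes overlapped and the Rif1 libraries differed widely. Of 8 early genes of the ecdysone response, 1 lay in a called bin: Hr4, a nuclear receptor gene, had -0.46 and -0.0027 in Rif1 and 0.44 and 0.58 in WT (difference -0.75 ± 0.20, adjusted p = 0.0351), and it was not called without Rif1 replicate 1, WT replicate 1 or WT replicate 2 (adjusted p of 0.0699 to 0.130). The puff gene br had 0.025 and 1.70 in Rif1 and 2.08 and 2.08 in WT, and the spread between the Rif1 libraries left its difference of -1.22 uncalled (adjusted p = 0.127). Of 9 chorion genes, which share 3 bins, and of 4 tested larval serum protein genes, in 4 bins, 0 lay in called bins.

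Rif1 was last set against SuUR, the other mutant in which UR is reduced. limma called 444 of 2351 bins higher in Rif1 than in SuUR (18.9%) and 157 lower (6.68%). In eUR, where the SuUR medians were -1.77 and -1.49, Rif1 was higher in 154 of 190 bins and lower in 1, by a median of 1.10. In PH, where the SuUR medians were -6.13 and -7.44, it was higher in 49 of 55 bins, by a median of 3.08. Of the bins delayed in Rif1 against WT, 135 of 286 were also lower than in SuUR and 0 higher, and of the 430 advanced FR bins tested against SuUR 192 were higher and 0 lower. Both comparisons share the Rif1 libraries. The domain at 85C was lower than in SuUR in 19 of 23 bins (mean difference -0.92), and SuUR there had 0.051 and 0.19, beside WT. At 67D 15 of 16 bins were higher in Rif1 than in SuUR, which had -0.65 and -0.67. At 100A only 1 of 7 bins was, with SuUR at -0.042 and -0.23, above both WT libraries. Of 601 called bins in the full test, the number was 158 without Rif1 replicate 1, 243 without Rif1 replicate 2, and 300 and 357 without SuUR replicate 1 and 2.

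The test in the study's methods treats windows as replicates within a bin. It compared the windows of both libraries of each genotype by a one-way analysis of variance with Bonferroni adjustment at 0.01, and kept regions longer than 200 kb. It gave 717 variant bins of 2382 (30.1%) in 84 regions, of which 514 were higher and 203 lower in Rif1. UR held 240 of them (33.5%), and outside UR 274 were higher and 203 lower. Of the variant bins 682 were also called by limma. Windows of a library are not independent samples, so this count says less of the spread between libraries than the count from limma. Each library pooled about 20 larvae, so neither count measures the spread between single larvae.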

How the data were processed

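The study sequenced genomic DNA of salivary glands, and 4 libraries (Rif1 and WT, 2 each) were compared, with 2 SuUR libraries beside them. The deposited rawRT is a score: reads were mapped by the authors with BWA mem 0.7.17 (dm6), counted in windows that each held 1000 bp of unique sequence, adjusted for base composition and scaled, and outlying windows were dropped after a segmentation step. A second deposited table holds the same score after spline smoothing and served as an alternative. Depth is unknown, so no counting intervals were computed. Coordinates above 1 Mb carry 5 digits in the files.

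Bin means of 50 windows (at least 25 values in each library) were compared with limma 3.58.1 (lmFit and eBayes, R 4.3.3), two-sided, with Benjamini-Hochberg adjustment over all tested bins at 0.05. Domains are runs of bins called in one direction over 200 kb. UR was called from the WT mean (running median of 21 windows more than 1 SD below the mean, gaps under 10 windows merged, at least 50 kb); PH ended where 100 windows in a row passed it. Bins with at least 0.5 of their windows in UR counted as UR. Genes and bands were read from the annotation that RefSeq gives for dm6. The tests were tested on simulated data with shifts larger than the median delayed difference, all of them rises. This says nothing of the smaller delayed calls. Named items are the 6 longest advanced and the 6 longest delayed domains with under 0.1 of their windows in UR, the 4 longest advanced ones with at least 0.5, the 3 most changed bins each way and up to 4 called genes a list, all outside 2R, and exceptions are marked. The members, lists and rules were chosen with earlier results of these data known. Alternatives covered normalization, bin size, length limits, UR threshold, the replicate block and each library left out.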

Additional observations from a re-analysis of the deposited data

How the results depend on the processing

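For 16 domains, 6 bins and 21 genes named in the text the alternatives were run one by one, and none turned their direction, although sizes moved with the scaling. For the replicate block or a library left out, this was fixed by the choice of called bins. In these both Rif1 libraries lay on the same side of both WT libraries. The bin chosen for the advanced sequence and lab, pb, Dfd and Scr were not among the named items. Against 675 advanced and 286 delayed bins, bins of 25 windows gave 1195 and 423, and bins of 100 windows gave 378 and 186. Quantile normalization gave 789 delayed bins and 37.7% of the calls advanced, against 70.2%. A minimum difference of 1 left 51 delayed bins. Leaving out a library gave 402 to 573 advanced and 40 to 154 delayed bins, and 46 to 57 advanced and 1 to 13 delayed domains, against 58 and 19. With a length limit of 100 kb there were 111 advanced and 43 delayed domains, and quantile normalization gave 55 delayed domains. For Rif1 against SuUR (601 bins), bins of 25 and 100 windows gave 925 and 379, and leaving out a library 158 to 357. The median difference in eUR (4.83) was 2.53 at a UR threshold of -1, 2.80 after quantile normalization and 5.47 with UR called in WT replicate 1 and measured against replicate 2. In PH (4.43) it was 3.5 at a threshold of -1, 0.38 after quantile normalization and 3.22 after signal scaling. In FR (0.035) it turned to -0.073 at a threshold of -1, -0.014 with smoothed values and -0.23 after quantile normalization. The cause of these shifts was not tested. With the replicate number as a block there were 679 advanced and 276 delayed bins, 60 and 17 domains, 718 variant bins and 832 bins between Rif1 and SuUR. Same-numbered Rif1 and WT libraries deviated together weakly over all bins (r = 0.200) and in FR (0.108), but not in eUR (-0.032) or PH (-0.119). The labels do not say that a number marks a shared batch. With FR medians set to 0, an alternative chosen after seeing the data, 67.7% of the calls were advanced. The unknown depth and the 2 libraries in a group limit the precision; the median SE of a bin's difference was 0.162 in FR, 0.318 in eUR and 0.409 in PH.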
